A study of Mustela putorius furo with 8 samples.

Results

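Genes of retinoid handling were followed through the polarization of ferret pancreatic ductal epithelium (PDE), 7 of the 27912 features in the count matrices. They were taken by symbol: STRA6, DHRS3, ALDH1A1, ALDH1A3, CRABP2, FABP5 and RARB. All 7 symbols were present and all passed the minimum of 30 unique molecular identifiers (UMIs, the tags that mark single captured RNA molecules) over the 8 libraries. Their totals were 293 UMIs for STRA6, 94278 for DHRS3, 121411 for ALDH1A1, 1126 for ALDH1A3, 189975 for CRABP2, 510732 for FABP5 and 5451 for RARB.

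Vitamin A circulates as retinol. Cells take it up, oxidize it reversibly to retinal and then irreversibly to retinoic acid, which small binding proteins carry in the cytosol and which acts in the nucleus on receptors that switch target genes. STRA6 is the membrane receptor for retinol bound to its plasma carrier. DHRS3 reduces retinal back to retinol. ALDH1A1 and ALDH1A3 are retinal dehydrogenases that make retinoic acid. CRABP2 hands retinoic acid to the retinoic acid receptors and FABP5, a fatty acid binding protein, can carry it to another nuclear receptor. RARB encodes retinoic acid receptor beta, itself a textbook target gene of the pathway. Retinoic acid is needed for the outgrowth of the dorsal pancreas in the embryo, and high aldehyde dehydrogenase activity is a known feature of centroacinar cells, which sit where the duct meets the acinus.

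Duct cells came from the pancreas of newborn ferrets, wild type (WT) or with both CFTR alleles knocked out (CFTR KO/KO, called CF). CFTR carries chloride and bicarbonate out of duct cells, and its loss causes cystic fibrosis. The cells of both genotypes were passaged 10 times and then grown at an air-liquid interface (ALI) for 2, 5, 7 or 9 days, after which they were dissociated for droplet single-cell RNA sequencing. Each combination of genotype and day gave 1 library, made from a pool of 3 donors of that genotype, and the donors were not told apart. The question of the design was how the cell states of the CF duct epithelium diverge from those of WT as the sheet differentiates.

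The retained cells numbered 4634 to 6224 in the WT libraries and 1607 to 4499 in the CF libraries, 32945 in all, with 34735952 to 114585136 UMIs a library. The CF day 7 library stood apart in depth, with 411 of its 1607 cells under 3000 UMIs. In all, 148 cell barcodes occurred in more than 1 library, on 297 cells. CFTR transcripts were still counted in CF cells, at 2.5, 8.69, 11.1 and 11.4 CPM (counts scaled to a library total of 1000000 UMIs) on days 2, 5, 7 and 9, against 6.57, 16.9, 15.9 and 29.5 CPM in WT. The paper states that CFTR KO/KO ferrets make neither CFTR mRNA nor CFTR protein. Counts by gene cannot tell a disrupted transcript from an intact one, and which of them was counted was not tested. Duct markers were detected in every library (7 of 7, summed 7638 to 9999 CPM), INS and GCG were at 0 in every library, and the 3 acinar enzyme genes in the matrices reached at most 11 UMIs a library. The summed level of 10 stellate and fibroblast markers was 3.12 to 7.53 CPM in WT and 9.96, 1.89, 56.7 and 31.5 CPM in CF on days 2, 5, 7 and 9, with DES at 0 in both genotypes from day 5 on. Of these 10 markers, 4 or 5 were at 0 in each WT library, and 0, 4, 1 and 1 in the CF libraries. CF cluster 11 held the highest level of that list, 376.7 CPM. The immune markers PTPRC, CD68 and CD3E summed to 3.89 to 9.31 CPM in the WT libraries and to 20.9, 7.63, 4.43 and 6.06 CPM in the CF libraries on days 2, 5, 7 and 9. Nearly all of this was CD68, since PTPRC and CD3E had at most 2 UMIs each in any library. The part of these markers in the results was not tested.

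With 1 library a group there was no replicate spread and no test between genotypes or days. Values below are CPM over all retained cells of a library, with exact Poisson intervals, and ratios of CPM with exact binomial intervals. All intervals are at 95% and cover counting error only. They are narrow for abundant genes and say nothing of how another pool of donors would differ. A library's CPM also cannot tell a change in the level per cell from a change in the mix of cells.

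The CF epithelium carried less of the retinal dehydrogenase transcripts and more of the CRABP2 transcript than WT at all 4 days. ALDH1A1 was 1.35- to 2.84-fold higher in WT, ALDH1A3 was counted at most 5 times in a CF library, and CRABP2 was 1.51- to 9.90-fold higher in CF. For FABP5, RARB and DHRS3 the order of the genotypes depended on the day, so that RARB and DHRS3 were lower in CF on day 2 and higher on day 9. STRA6 was near the floor of detection, with a higher level in CF on day 9. Against the WT cells of SOX2-low clusters alone, described further on, the direction turned on at least 1 day for ALDH1A1, CRABP2, FABP5, RARB and STRA6, including ALDH1A1 on days 2, 5 and 7 and CRABP2 on day 9.

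**Figure D1:**
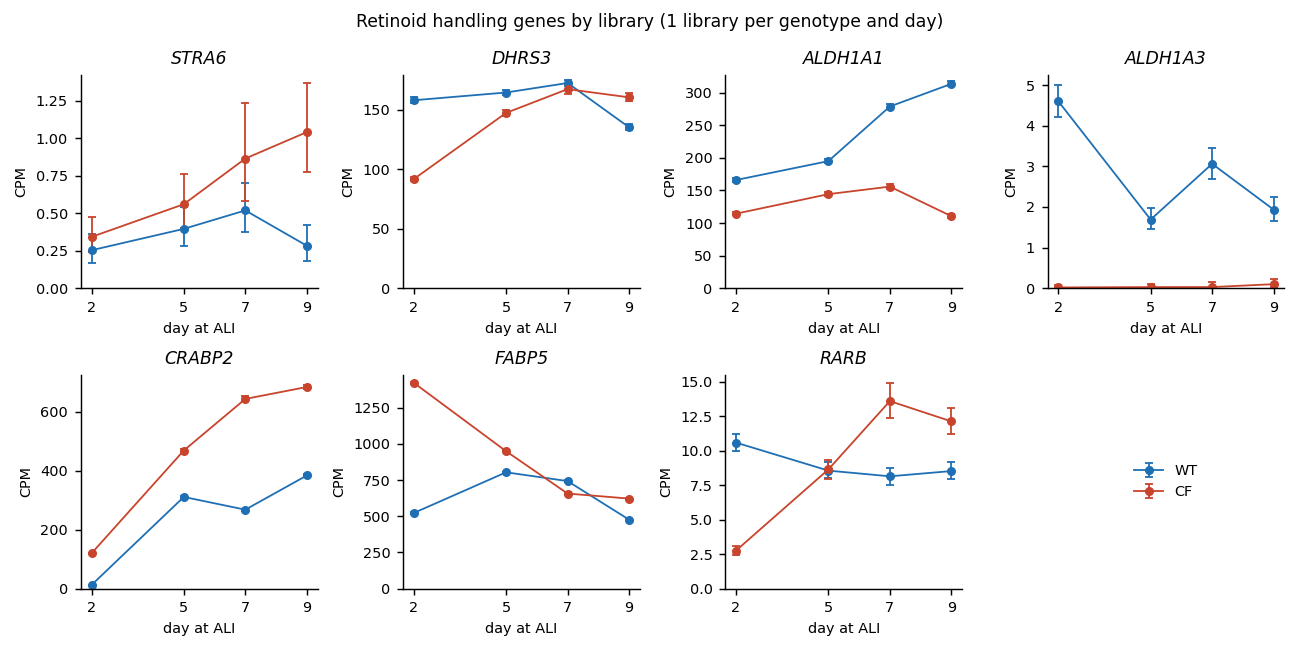
Level of each retinoid handling gene (CPM, y axis) by day at ALI (x axis) in WT and CF, 1 library a point, bars for 95% Poisson intervals. ALDH1A1 lies between 166 and 313 CPM in WT and between 111 and 156 CPM in CF, while CRABP2 lies higher in CF on each day.

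STRA6, the retinol receptor, was counted 29, 40, 43 and 24 times in WT on days 2, 5, 7 and 9, which is 0.253, 0.395, 0.518 and 0.283 CPM. In CF it was counted 35, 40, 30 and 52 times, or 0.342, 0.560, 0.864 and 1.04 CPM. The level was higher in CF on each day, but the interval of the ratio held 1 on days 2 and 5 (1.35, 0.803 to 2.29, and 1.42, 0.890 to 2.25). It was 1.67 (1.01 to 2.72) on day 7 and 3.67 (2.22 to 6.23) on day 9. In the order of the 8 libraries every library's interval overlapped that of its neighbour. Without the 7 clusters whose median was under 5000 UMIs, the day 9 difference remained positive, at 0.67 on the log2(CPM + 1) scale, a scale that understates the difference of genes this low.

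DHRS3, which returns retinal to the retinol pool, was at 158, 164, 172 and 135 CPM in WT and at 91.8, 147, 167 and 160 CPM in CF. The CF to WT ratio was 0.581 (0.566 to 0.595) on day 2, 0.896 (0.874 to 0.918) on day 5, 0.970 (0.941 to 1.00) on day 7 and 1.19 (1.15 to 1.22) on day 9. CF day 2 was the lowest of the 8 libraries, and the 5 highest libraries each overlapped their neighbour. From day 2 to day 9 the level was 1.75-fold (1.70 to 1.80) higher in CF and 0.856-fold (0.836 to 0.876) in WT.

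ALDH1A1, the retinal dehydrogenase of centroacinar cells, was at 166, 195, 279 and 313 CPM in WT and at 114, 144, 156 and 111 CPM in CF. No CF library reached the lowest WT library. The CF to WT ratio was 0.689 (0.673 to 0.705) on day 2, 0.740 (0.723 to 0.758) on day 5, 0.559 (0.543 to 0.576) on day 7 and 0.353 (0.342 to 0.363) on day 9. The WT level was 1.89-fold (1.85 to 1.92) higher on day 9 than on day 2, and the CF level was 0.966-fold (0.936 to 0.998). Only CF day 2 and CF day 9 overlapped among neighbours in the order of libraries.

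ALDH1A3, a second retinal dehydrogenase, was counted 527, 171, 254 and 164 times in WT and 2, 2, 1 and 5 times in CF. In WT this was 4.60, 1.69, 3.06 and 1.93 CPM. The WT to CF ratio was 235 (64.8 to 1948) on day 2, 60.4 (16.5 to 503) on day 5, 106 (18.9 to 4217) on day 7 and 19.3 (8.12 to 60.4) on day 9, wide because so few CF molecules were counted. The 4 CF libraries could not be ordered. At 3000 UMIs a cell, 1.12% of WT day 2 cells held an ALDH1A3 UMI and 0.398% to 0.460% of the cells of later WT libraries. In CF it was in 0 of 4460, 2705, 1196 and 2265 cells, which allows shares of up to 0.0673%, 0.111%, 0.251% and 0.132% of cells with a UMI at that depth and sets no limit on the share of cells that express the gene. At full depth, 0.0445%, 0.0727%, 0.0622% and 0.201% of CF cells held a UMI.

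CRABP2, the carrier that delivers retinoic acid to its receptors, was at 12.1, 311, 268 and 384 CPM in WT. In CF it was at 120, 469, 644 and 684 CPM. The CF to WT ratio was 9.90 (9.36 to 10.5) on day 2, 1.51 (1.48 to 1.53) on day 5, 2.40 (2.36 to 2.45) on day 7 and 1.78 (1.76 to 1.81) on day 9. Both genotypes had their lowest level on day 2, and the WT level was 25.7-fold (24.4 to 27.2) higher on day 5 than on day 2, against 3.92-fold (3.84 to 4.0) in CF. From day 2 to day 9 the factors were 31.8 (30.1 to 33.5) in WT and 5.72 (5.60 to 5.84) in CF. No neighbours overlapped in the order of the 8 libraries.

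FABP5, the alternative carrier, was at 523, 804, 743 and 476 CPM in WT and at 1423, 950, 657 and 622 CPM in CF. The CF level on day 9 was 0.437-fold (0.432 to 0.443) that on day 2, and the WT level 0.911-fold (0.900 to 0.923). The CF to WT ratio was 2.72 (2.70 to 2.75) on day 2, 1.18 (1.17 to 1.19) on day 5, 0.884 (0.871 to 0.897) on day 7 and 1.31 (1.29 to 1.33) on day 9. Within CF, CRABP2 and FABP5 thus ran in opposite directions from day 2 to day 9.

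RARB, the receptor, was at 10.6, 8.55, 8.14 and 8.52 CPM in WT and at 2.76, 8.63, 13.6 and 12.1 CPM in CF. The CF to WT ratio was 0.261 (0.228 to 0.297) on day 2, 1.01 (0.909 to 1.12) on day 5, 1.67 (1.48 to 1.88) on day 7 and 1.42 (1.28 to 1.59) on day 9. The level on day 9 against day 2 was 4.40-fold (3.81 to 5.08) in CF and 0.805-fold (0.733 to 0.884) in WT. CF day 5 and the WT libraries of days 5, 7 and 9 overlapped as neighbours, as did CF day 7, CF day 9 and WT day 2. Without the clusters with a median under 5000 UMIs the log2(CPM + 1) differences were -1.63, 0.09, 0.68 and 0.46 on days 2, 5, 7 and 9, against -1.62, 0.01, 0.68 and 0.46 with them.

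**Figure D2:**
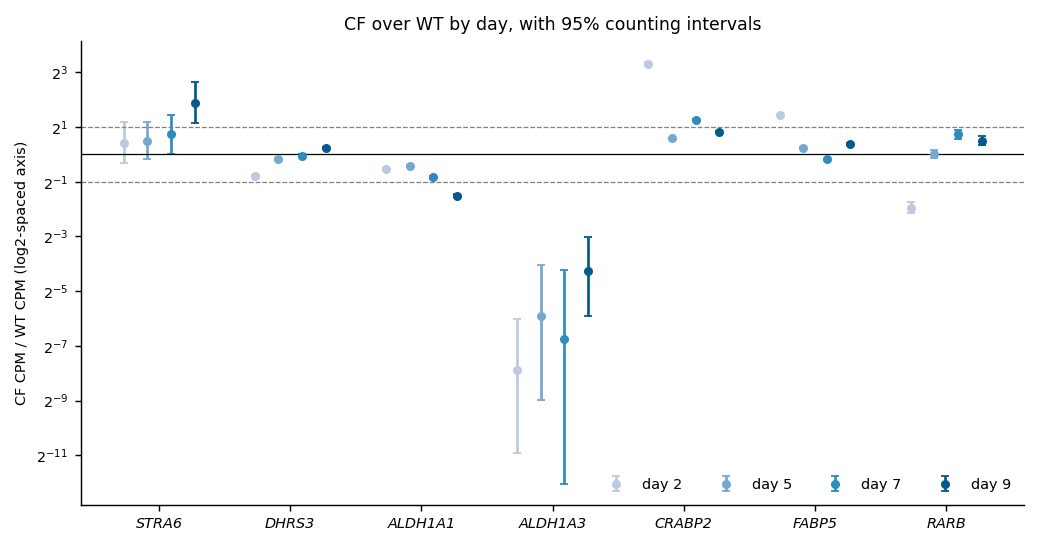
CF CPM divided by WT CPM (y axis, log2-spaced) for each gene and day, with 95% counting intervals; dashed lines mark 2-fold. ALDH1A3 lies far below the lower line on each day, from 0.00425 on day 2 to 0.0517 on day 9, and CRABP2 lies above 1 on each day.

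Read by a 2-fold difference, CRABP2 and FABP5 were higher and ALDH1A3 and RARB lower in CF on day 2, where 8.54% of 13974 genes with at least 30 UMIs in the 2 libraries were as far higher and 9.1% as far lower. On day 5 no gene of the 7 was 2-fold higher (5.55% of all genes) and only ALDH1A3 was 2-fold lower (9.33%). On day 7 CRABP2 was higher (9.16%) and ALDH1A3 lower (6.46%). On day 9 STRA6 was higher (8.28%), and ALDH1A1 and ALDH1A3 were lower (7.07%). ALDH1A3 was the only member 2-fold apart in 1 direction at all 4 days, as were 2.91% of 13345 genes in that direction. The median log2 difference of the 7 genes was -0.53, 0.01, -0.04 and 0.38 on days 2, 5, 7 and 9, beside -0.01, -0.05, 0.12 and 0.07 over all genes tested.

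Over time, CRABP2 was the only member at least 2-fold higher on day 9 than on day 2 in WT, where 16% of genes were, and ALDH1A3 the only member at least 2-fold lower, where 8.16% were. In CF, CRABP2, RARB and STRA6 were at least 2-fold higher (14.4% of genes) and FABP5 was lower by that much (5.25%), while ALDH1A3, with 2 and 5 UMIs, did not reach 30 UMIs in those libraries. The change in CF divided by the change in WT was 5.46 (4.61 to 6.46) for RARB, 2.72 (1.36 to 5.42) for STRA6, 2.04 for DHRS3, 0.512 for ALDH1A1, 0.480 for FABP5 and 0.180 for CRABP2.

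The rest of the pathway was read from a list of 44 gene symbols, of which 30 had at least 30 UMIs over the 8 libraries. DHRS4, ADH7, AKR1B10 and the CYP26 symbols of the list were not among the features. The symbol TIG1 was absent too, but it is a second name of RARRES1, which was counted. At least 2-fold higher in CF were 6 of 28 testable genes on day 2, 5 of 29 on day 5, 4 of 27 on day 7 and 3 of 28 on day 9. The shares over all genes were 8.54%, 5.55%, 9.16% and 8.28%. At least 2-fold lower were 2, 4, 3 and 3 of the same genes, beside 9.1%, 9.33%, 6.46% and 7.07% of all genes. The list's median log2 difference was 0.24, 0.05, 0.17 and 0.15, beside -0.01, -0.05, 0.12 and 0.07 over all genes. LRAT, RDH16 and RARRES1 were higher by that much on all 4 days, as were 2.46% of all genes, and TGM2 was lower (2.91%).

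Among uptake and storage genes, LRAT, which esterifies retinol for storage, was at 0.305, 0.583, 0.289 and 0.153 CPM in WT and at 3.96, 2.55, 2.10 and 1.64 CPM in CF. Of the 3 most counted genes of that group, RBP4, the plasma retinol carrier, was 3.83-, 1.98-, 2.25- and 1.29-fold higher in CF on days 2, 5, 7 and 9. BCO2, which cleaves carotenoids, was at 37.5, 6.32, 11.6 and 4.65 CPM in WT and at 8.28, 8.05, 9.44 and 8.20 CPM in CF, so that it was lower in CF on days 2 and 7 and higher on days 5 and 9. DGAT1, an acyltransferase that can also esterify retinol, had ratios of 0.920 to 1.48.

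Among the enzymes between retinol and retinal, RDH16 was at 0.332, 0.781, 0.482 and 0.861 CPM in WT and at 4.64, 5.89, 6.33 and 4.90 CPM in CF. RDH10, the main retinol dehydrogenase of the embryo, was at 19.8, 28.6, 35.5 and 54.1 CPM in WT and at 23.95, 32.2, 33.2 and 28.9 CPM in CF, which made it lower in CF on day 9 (0.533). DHRS9 was higher in CF on day 2 (1.37) and lower on days 5, 7 and 9 (0.477, 0.408 and 0.542). RDH14 had ratios of 1.07 to 1.45. ALDH1A2, the dehydrogenase of the embryonic mesoderm, had no UMI in the retained cells of any library. The CYP26 enzymes that break down retinoic acid were not among the features by symbol and so were not analysed here.

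None of the 6 receptors on the list, which leaves out RARB, was 2-fold apart on any day. RARA was 1.24- to 1.52-fold higher in CF, RARG had ratios of 0.984 to 1.31 and PPARD, the receptor that FABP5 can supply, of 1.04 to 1.52. Among response genes, RARRES1, named for its induction by retinoids, was at 0.244, 0.830, 0.976 and 1.27 CPM in WT and at 2.16, 3.12, 2.82 and 3.50 CPM in CF. TGM2, tissue transglutaminase and a textbook retinoid target, went the other way, at 32.7, 41.9, 38.4 and 24.2 CPM in WT and at 3.54, 9.04, 13.8 and 9.60 CPM in CF. GPRC5A was 2.63-fold higher in CF on day 2 and 0.636-fold on day 9. NRIP1, a corepressor, had ratios of 1.07 to 1.69, and NR2F2, an orphan nuclear receptor, of 0.675 to 1.13.

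The study divided the WT cells into 41 clusters and the CF cells into 30, with no cluster across genotypes, and gave each cluster 1 of 6 class names. Of the 71 clusters, 65 held at least 100 cells, 36 in WT and 29 in CF. The WT clusters fell apart by SOX2, a transcription factor: 12 were under 10 CPM (at most 4.87) and 29 above it (at least 50.6), and the highest CF cluster was at 1.08 CPM. This division by SOX2 was made in earlier work on these same data and is not a group of the study. The levels below describe the clusters, which were themselves built from all genes, so no cluster was tested against another.

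With WT limited to its SOX2-low cells, the genotype difference of FABP5, ALDH1A1, RARB and CRABP2 had another direction on at least 1 day. STRA6 turned too, with ratios of 0.927 (0.558 to 1.56) on day 5 and 0.915 (0.526 to 1.60) on day 7 whose intervals held 1. FABP5 was at 409, 329, 422 and 290 CPM in SOX2-high WT cells on days 2, 5, 7 and 9, and at 1300, 1365, 1354 and 902 CPM in SOX2-low WT cells, beside the 1423, 950, 657 and 622 CPM of CF. Against SOX2-low WT cells, FABP5 in CF was therefore 1.09-fold on day 2 and 0.696-, 0.485- and 0.690-fold on days 5, 7 and 9. ALDH1A1 was at 182, 289, 374 and 392 CPM in SOX2-high cells and at 56.2, 84.1, 98.2 and 133 CPM in SOX2-low cells. The CF level was 2.04-, 1.72- and 1.59-fold the SOX2-low level on days 2, 5 and 7 and 0.830-fold on day 9, so the direction of the genotype difference in ALDH1A1 turned on days 2, 5 and 7 when WT was limited to SOX2-low cells.

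RARB was at 11.98, 12.8, 10.7 and 11.4 CPM in SOX2-high WT cells and at 1.02, 3.56, 3.25 and 1.90 CPM in SOX2-low WT cells. The CF level was 2.70-, 2.43-, 4.18- and 6.38-fold the SOX2-low level, higher on each day, while against SOX2-high cells the ratio was 0.230, 0.676, 1.27 and 1.06. STRA6 was at 0.25, 0.219, 0.294 and 0.119 CPM in SOX2-high cells and at 0.272, 0.604, 0.943 and 0.658 CPM in SOX2-low cells. Its CF to SOX2-low ratio had an interval that held 1 on each day, 1.58 (0.898 to 2.91) on day 9, whereas the ratio to SOX2-high cells was 8.76 (3.96 to 22.9) on that day. ALDH1A3 in WT stood in the SOX2-high cells, at 5.26, 3.08, 4.58 and 2.71 CPM, and was counted 2, 2, 5 and 4 times in SOX2-low cells. The CF to SOX2-low ratio of ALDH1A3 was 0.144 (0.0104 to 1.98), 0.649 (0.0471 to 8.95), 0.165 (0.00348 to 1.47) and 0.645 (0.139 to 3.25), with 1 inside the interval on each day. DHRS3 differed little between the WT sets, at 161, 161, 170 and 142 CPM in SOX2-high and 136, 169, 178 and 120 CPM in SOX2-low cells.

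The order of the WT sets in CRABP2 differed on day 5 from the other days. On day 2 it was at 3.09 CPM in SOX2-high and at 73.3 CPM in SOX2-low WT cells. On day 5 the order was the opposite, at 403 and 202 CPM, and on days 7 and 9 it turned back, at 232 and 337 CPM and at 201 and 801 CPM. The CF level was 38.7-fold (34.6 to 43.5) the SOX2-high level on day 2, 1.16-fold (1.14 to 1.18) on day 5, 2.78-fold on day 7 and 3.40-fold on day 9. It was 1.63-, 2.32- and 1.91-fold the SOX2-low level on days 2, 5 and 7, and 0.854-fold (0.840 to 0.869) on day 9.

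**Figure D3:**
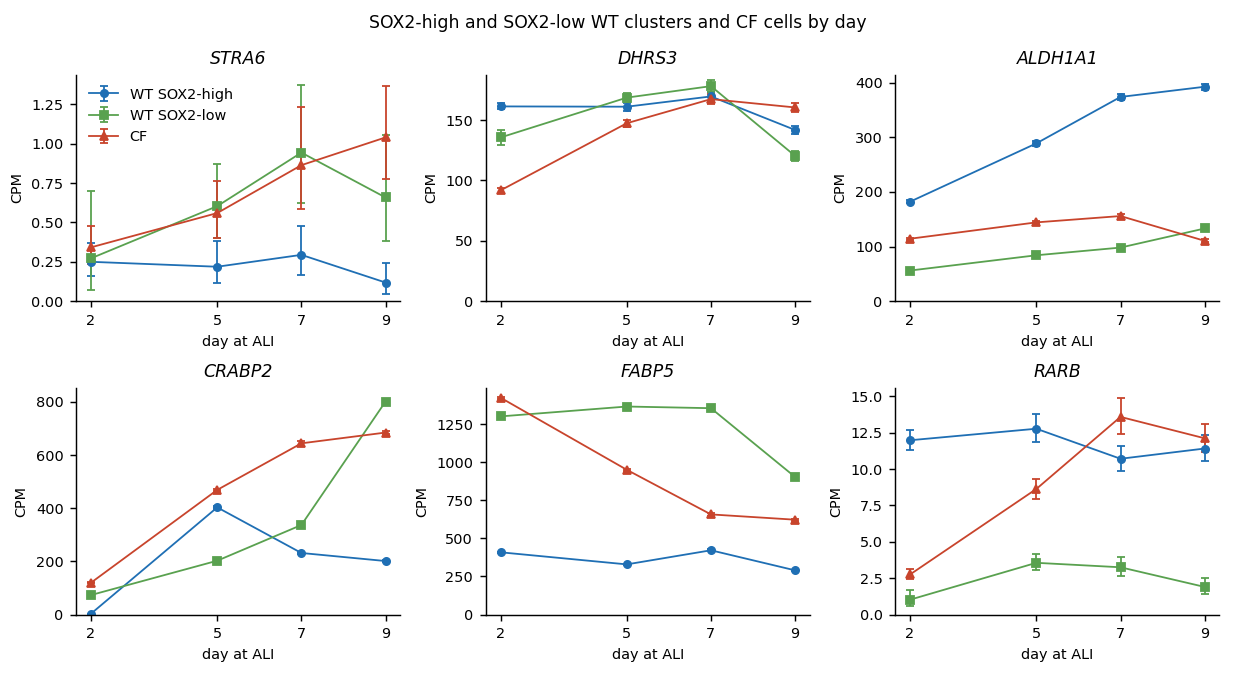
Level (CPM, y axis) by day at ALI (x axis) of 6 of the genes in WT cells of SOX2-high clusters, WT cells of SOX2-low clusters and CF cells, with 95% Poisson intervals. FABP5 in CF is near the SOX2-low WT cells on day 2 (1423 and 1300 CPM), and ALDH1A1 in SOX2-high WT cells (182 to 392 CPM) is above the other sets on each day.

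Among WT clusters of at least 100 cells, the SOX2-high clusters highest in CRABP2 mostly held less ALDH1A1 than the other late clusters. Of 25 SOX2-high clusters, 7 were at 278 to 929 CPM of CRABP2 and 18 at 0.916 to 75.6 CPM, with none between. The 7 clusters high in CRABP2 had 97.4% to 100% of their cells from days 5 to 9 and held ALDH1A1 at 101 to 327 CPM, with a median of 152. Of the 18 clusters low in CRABP2, 9 came mostly from days 5 to 9 and held ALDH1A1 at 308 to 694 CPM, with a median of 497. The ranges met in WT cluster 29, which held 278 CPM of CRABP2 and 327 CPM of ALDH1A1. The other 9 came mostly from day 2 and held ALDH1A1 at 91.8 to 452 CPM, with a median of 109. The limit between them, 100 CPM of CRABP2, was set after the values were seen.

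The same 7 clusters, WT 2, 5, 12, 14, 20, 23 and 29, also had other medians of DHRS3, RARB and FABP5, with ranges that overlapped for each. Their median was 294 CPM of DHRS3 (76.3 to 432) against 79.3 CPM (69.7 to 118) in the 9 late clusters low in CRABP2. Their median RARB was 19.7 CPM (5.10 to 62.0) against 5.77 CPM (1.95 to 7.04). Their median FABP5 was 97.7 CPM (69.2 to 975) against 426 CPM (235 to 1005). The 9 day 2 clusters had medians between those of the 2 sets, 165 CPM of DHRS3, 12.01 CPM of RARB and 309 CPM of FABP5. ALDH1A3 had medians of 0.911 CPM in the 7 clusters, 0.264 CPM in the 9 late and 1.39 CPM in the 9 day 2 clusters, and STRA6 of 0.288, 0 and 0.374 CPM.

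In single WT cells, CRABP2 was in a smaller share of the cells that held ALDH1A1. At 3000 UMIs a cell, 21.9% (20.4% to 23.5%) of WT day 9 cells with an ALDH1A1 UMI also held a CRABP2 UMI, against 44.96% (43.0% to 47.0%) of cells without one. The shares were 25.4% and 36.9% in WT on day 5 and 21.3% and 35.7% on day 7. In CF the shares had overlapping intervals on all 4 days and no order is read from them, at 18.2% and 15.3% on day 2, 45.8% and 40.6% on day 5, 53.3% and 52.5% on day 7 and 60.1% and 59.1% on day 9. These shares are over cells of 1 library each, and the cells of a library are not replicates.

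**Figure D4:**
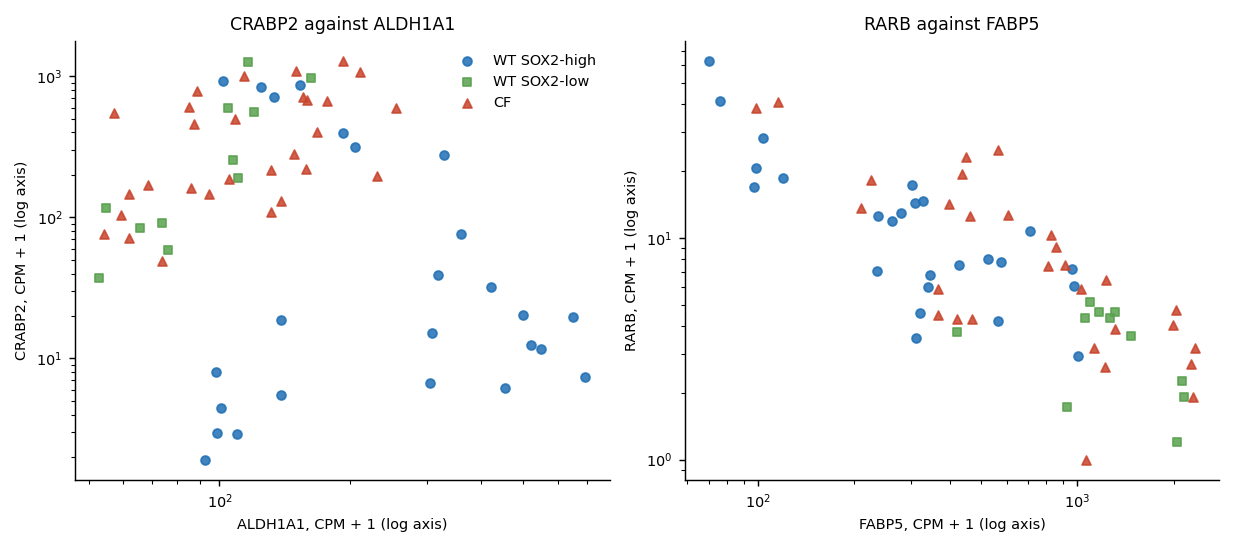
Each point is a cluster of at least 100 cells, with CPM + 1 of ALDH1A1 against CRABP2 (left) and of FABP5 against RARB (right) on log axes, marked as SOX2-high WT, SOX2-low WT or CF. SOX2-high WT clusters at or over 278 CPM of CRABP2 hold at most 327 CPM of ALDH1A1, and RARB runs downward as FABP5 runs upward in WT and CF alike.

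FABP5 and RARB ran against each other over clusters. Pearson's r of log2(CPM + 1) was -0.79 over the 65 clusters, -0.86 over the 36 of WT and -0.75 over the 29 of CF. FABP5 ran against DHRS3 too (-0.70, -0.64 and -0.78), and RARB ran with DHRS3 (0.65, 0.62 and 0.70). ALDH1A1 and CRABP2 had r of -0.25 in WT and 0.52 in CF. Clusters of a genotype share libraries and depth differs between them, so these are descriptions of the clusters. In single cells at 3000 UMIs, DHRS3 was held by a smaller share of the cells with a FABP5 UMI than of those without in each library except CF day 7. The shares were 24.2% and 39.2% in CF day 2 and 26.2% and 35.8% in WT day 9. In CF day 7 they were 35.8% (32.5% to 39.2%) and 42.8% (37.8% to 47.9%), with overlapping intervals, and no order is read from them.

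Of the 4 clusters highest in RARB, 3 had few UMIs a cell. WT cluster 20 was at 62.0 CPM with a median of 3398 UMIs a cell and 10.2% mitochondrial reads, CF cluster 27 at 39.9 CPM with 4718 UMIs and 17.4%, and CF cluster 23 at 37.4 CPM with 3246 UMIs and 11.7%. The other was WT cluster 23, at 40.5 CPM. WT 20 and CF 23 also had the lowest FABP5 of their genotypes among clusters of at least 100 cells, 69.2 and 97.2 CPM. WT cluster 20 and CF cluster 27 also had the largest STRA6 values, 4.33 and 4.31 CPM, but on only 9 and 4 UMIs. Their intervals began at 1.98 and 1.18 CPM and overlapped that of CF cluster 16 (1.495 to 3.88 CPM, 19 UMIs). No highest cluster is therefore named for STRA6. The summed stellate and fibroblast markers were at 122 CPM in CF 23 and 36.7 CPM in CF 27, the highest of all 71 clusters after CF cluster 11, and at 12.98 CPM in WT 20 and 5.30 CPM in WT 23. The part of depth, RNA quality and these markers in the levels was not tested. Over the clusters of CF cells by day (at least 50 cells), the median RARB was 2.91 CPM on day 2, 8.98 on day 5, 13.6 on day 7 and 16.8 on day 9.

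ALDH1A3 was concentrated in small clusters. WT cluster 32 (169 cells, 110.6 CPM) and WT cluster 37 (90 cells, 219.9 CPM) held 60.1% of all WT ALDH1A3 UMIs in 1.20% of WT cells, and with cluster 14 they held 71.1%. Of the 29 CF clusters of at least 100 cells, 20 held none, and the highest stood at 0.143 CPM. The other 6 genes were spread, in that the 3 clusters with most UMIs held 24.1% to 41.8% of a gene's UMIs in WT and 24.6% to 40.8% in CF.

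**Figure D5:**
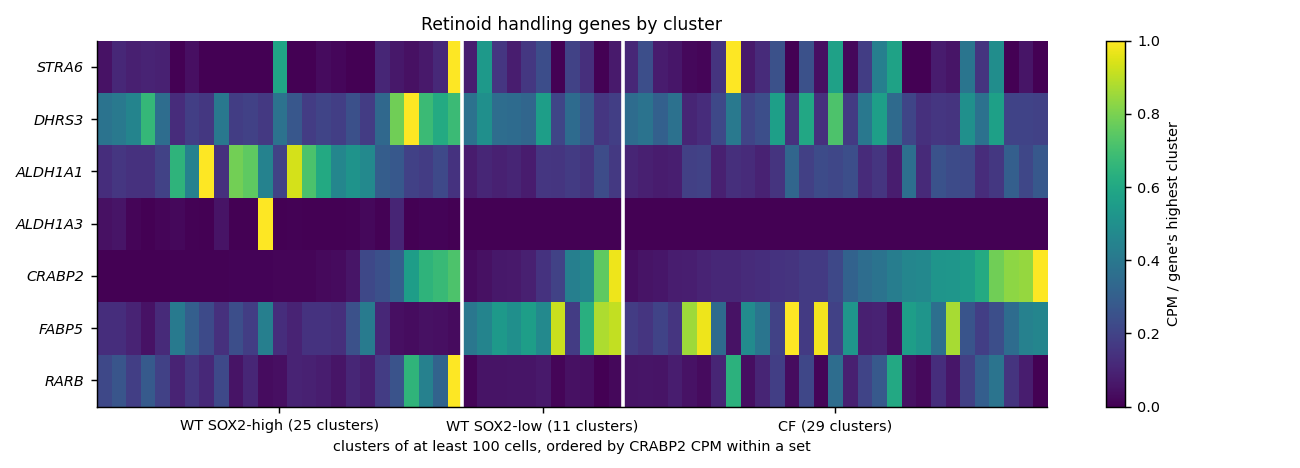
Level of each gene in the 65 clusters of at least 100 cells, as CPM divided by that gene's highest cluster (colour, 0 to 1); columns are clusters ordered by CRABP2 within SOX2-high WT, SOX2-low WT and CF. ALDH1A3 is bright in a single WT column, at 110.6 CPM, and CF reaches at most 0.143 CPM.

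By the study's class names, CRABP2 was 18.4- to 36.8-fold higher in CF in centroacinar progenitors. A cluster kept its name here unless it was shallow or a different class had the most markers among the 10 genes that led it, which left 58 of 71 clusters. As the clusters were made within a genotype, different clusters hold each class: for progenitors WT clusters 10, 13, 18, 21, 24, 32 and 40 and CF clusters 4, 17, 18 and 25. In these cells CRABP2 was at 4.92, 28.2, 29.1 and 61.5 CPM in WT and at 181, 654, 918 and 1133 CPM in CF, ratios of 36.8, 23.2, 31.6 and 18.4. All of these WT clusters were SOX2-high, so the progenitor ratios set CF against SOX2-high WT cells only. With every cluster named progenitor the CRABP2 ratios were 37.0, 33.4, 39.7 and 21.0. ALDH1A1 in the same class was at 454, 435, 541 and 460 CPM in WT and at 231, 210, 222 and 176 CPM in CF, ratios of 0.510, 0.482, 0.411 and 0.382. ALDH1A1 was among the markers by which the study named this class, and CRABP2 and FABP5 were among the genes it followed along CF lineages, so that their levels here are no independent evidence. FABP5 in progenitors was 2.47-, 3.41-, 1.83- and 1.74-fold higher in CF.

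In centroacinar cells, compared on days 5, 7 and 9, DHRS3 was 2.14-, 1.63- and 1.89-fold higher in CF and RARB 1.97-, 2.05- and 2.03-fold. ALDH1A1 was lower, with ratios of 0.487, 0.517 and 0.230. CRABP2 had ratios of 1.23, 0.975 and 3.28, and STRA6 on day 9 a ratio of 41.7 (7.12 to 1683) that rests on a WT level of 0.0288 CPM. The WT cells of this class, and of the ductal class, came from both SOX2-high and SOX2-low clusters. On day 9 SOX2-low WT centroacinar cluster 30 (146 cells) held 1444 CPM of CRABP2, above the 622 CPM of the CF class. SOX2-high WT clusters 3, 7, 12 and 16 held 17.4 to 285 CPM, so the day 9 ratio is no trait of all WT cells of the class.

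In ductal cells ALDH1A1 had CF to WT ratios of 0.670, 1.28 (1.21 to 1.35), 1.12 (1.01 to 1.24) and 0.965 (0.817 to 1.13) on days 2, 5, 7 and 9. With every cluster named ductal they were 0.825, 1.30, 1.28 and 1.18. DHRS3 was lower in ductal CF cells, with CF to WT ratios of 0.593, 0.521, 0.395 and 0.639 on days 2, 5, 7 and 9. CRABP2 was higher in CF, with ratios of 8.06, 1.83, 3.80 and 2.14. The day 9 ratios rest on 51 CF cells, and with every cluster named ductal they were 1.1 for CRABP2 and 0.405 for DHRS3. RARB had a ratio of 0.293 on day 2, and its interval held 1 on days 5, 7 and 9. With every cluster the RARB ratio was 0.787 (0.652 to 0.946) on day 5, 0.854 (0.631 to 1.14) on day 7 and 0.667 (0.491 to 0.889) on day 9.

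At 3000 UMIs a cell, CRABP2 was in 1.92%, 32.5%, 28.7% and 32.6% of WT cells on days 2, 5, 7 and 9 and in 16.0%, 42.3%, 52.8% and 59.3% of CF cells. At full depth it was counted in 4.64%, 49.96%, 46.2% and 48.0% of WT cells and in 39.4%, 69.5%, 70.8% and 79.6% of CF cells. For comparison, the lowest WT cluster of the same library held CRABP2 in 0%, 1.72%, 1.31% and 2.29% of its cells at 3000 UMIs. The lowest CF cluster held it in 5.33%, 12.9%, 25.3% and 29.0%. Free RNA was not measured, and the lowest cluster may itself express the gene, so its share is not a measure of background. Median depth before thinning was 15101 to 17085 UMIs in WT and 17964 to 27479 in CF.

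ALDH1A1 was in 32.1%, 38.6%, 48.7% and 53.6% of thinned WT cells and in 25.4%, 33.9%, 33.7% and 26.7% of CF cells. RARB was in 3.09%, 2.96%, 2.94% and 2.52% of WT cells and in 0.740%, 2.77%, 4.93% and 3.89% of CF cells. The unthinned RARB shares were 11.3% to 16.5% in WT and 5.93% to 20.3% in CF. DHRS3 was in 30.7% to 38.9% of WT cells and in 27.0% of CF day 2 cells and 36.8% to 38.0% of later CF cells. FABP5 was in 59.6%, 61.8%, 62.3% and 53.1% of WT cells and in 81.3%, 76.8%, 68.1% and 59.5% of CF cells, so that on day 7 the share was higher in CF while the CPM was lower, and no order is read from it. The lowest cluster of a library held ALDH1A1 in 8.96% to 28.1% of its cells, RARB in 0% to 1.79%, DHRS3 in 13.7% to 18.2% and FABP5 in 12.2% to 63.3%.

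Along the study's own pseudotime, in which cells of a genotype are ordered on 15 lineages in WT and 13 in CF that share cells, CRABP2 was higher in the last of 5 equal bins than in the first in 13 of 13 CF lineages, by 1.55- to 15.8-fold. In WT this held for 10 of 15 lineages, and 1 was lower, with ratios from 0.294 to 143. The pseudotime was itself built from the expression of these cells, and the study followed CRABP2 and FABP5 along it. The counts of lineages are therefore descriptions and no independent evidence, and no share over all genes stands beside them. RARB was higher at the end in 10 of 13 CF lineages and lower in 0, while in WT it was lower in 14 of 15. With 3 bins RARB was higher in 9 CF lineages and lower in 1, lineage 3, with a ratio of 0.597 (0.446 to 0.801). DHRS3 was lower at the end in 14 of 15 WT lineages and higher in 1, and in CF it was lower in 6 of 13 and higher in 7. With 3 bins it was lower in 12 and higher in 3 of the WT lineages. FABP5 was higher in 14 of 15 WT and 12 of 13 CF lineages, although its CF library level on day 9 was 0.437-fold that on day 2. ALDH1A1 was higher in 8 and lower in 7 of 15 WT lineages, and with 3 bins higher in 7 and lower in 8. In CF it was higher in 11 of 13 lineages and lower in 0.

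For each member the 3 genes with the most similar pattern were found by Pearson's r of log2(CPM + 1) over the 65 clusters, among 10082 genes. ALDH1A1 was most like WDR72 (0.92), SCEL (0.90) and GALNT5 (0.89), and CRABP2 most like MOB3B (0.88), PAK3 (0.88) and THRB (0.87). RARB was most like SORCS2 (0.84), TLL1 (0.82) and PITX1 (0.80). DHRS3 was most like MRPS31 (0.90), NBL1 (0.90) and LOC101680223 (0.88), and STRA6 most like ZNF629 (0.85), PNISR (0.84) and ZZZ3 (0.84). ALDH1A3 had no close match, with FAM111A at 0.62, MTG1 at 0.61 and RSPH4A at 0.60. Within the 29 CF clusters alone r was lower for CRABP2, at 0.68, 0.43 and 0.38 for the same 3 genes against 0.89, 0.95 and 0.90 within the 36 WT clusters. For ALDH1A1 it was 0.78, 0.75 and 0.67 in CF and 0.95, 0.94 and 0.95 in WT, and for RARB 0.78, 0.78 and 0.68 against 0.91, 0.86 and 0.90. For ALDH1A3 it was at most 0.32 in CF and 0.53 in WT, and for DHRS3 and STRA6 at least 0.87 in CF and 0.73 in WT. STRA6 had 293 UMIs in all and was at 0 in 10 of 25 SOX2-high WT, 2 of 11 SOX2-low WT and 5 of 29 CF clusters. ALDH1A3 was at 0 in 20 of the 29 CF clusters. The r of STRA6, and of ALDH1A3 within CF, thus rests on few counts, and no likeness is read from it.

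FABP5 was most like LOC101682454 (0.90), followed by KRTCAP3 (0.87) and SFTA2 (0.86). Within WT clusters and within CF clusters alone, r with LOC101682454 was 0.99. Its UMIs were 4.09% to 6.08% of those of FABP5 in the WT libraries and 10.9% to 14.99% in the CF libraries, so that the share was higher in each CF library than in each WT library. Whether reads were shared between these loci was not tested, and FABP5 is uncertain to that extent. With the UMIs of both loci added, the log2 differences of FABP5 were 1.56, 0.35, -0.09 and 0.48 on days 2, 5, 7 and 9.

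On the ferret assembly ASM1176430v1.1 the RefSeq table lists all 7 as protein coding, by position without naming the chromosome. RARB spans 120157326 to 120352447, ALDH1A1 10441774 to 10494355 and DHRS3 8945128 to 8982619. ALDH1A3 spans 6451707 to 6488711, STRA6 18264726 to 18294598, CRABP2 4313511 to 4317633 and FABP5 11591243 to 11595715. Loci listed at overlapping positions were counted 217 times beside ALDH1A1 (LOC123387530), 1735 times beside FABP5 (LOC123387185), 5 times beside RARB (LOC101671636) and 9 times beside DHRS3 (LOC123387300) in all.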

How the data were processed

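Droplet single-cell RNA was counted in 8 libraries, 1 per genotype and day. Per the labels and the study's methods, the authors ran Cell Ranger 5.0.1 and then Seurat in R 4.1.2, dropped cells under 200 genes or over 20% mitochondrial reads and removed doublets. The deposited matrices hold UMI counts per gene and barcode, the unit used for every level here. The authors' cell table gave the retained cells, clusters, class names, counts per cell, the percent of mitochondrial reads and pseudotime scores by slingshot. A deposited normalized table (natural log of 1 plus UMIs per 10000) was not used.

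Counts of retained cells were summed by library, cluster, class or SOX2 set and divided by the total to give CPM. Genes needed 30 UMIs in the libraries compared, and clusters 100 cells (50 for class and day values). Log2 differences used log2(CPM + 1). Intervals were exact Poisson for CPM, exact conditional binomial for ratios and Clopper-Pearson for shares, at 95%. A share of 0 allows 3 counts of the total. Droplets hold free RNA, which was not measured. The lowest cluster's share was given for comparison and may hold true expression. Shares were taken after thinning cells to 3000 UMIs (seed 1). Interval coverage was checked on simulated Poisson counts. That is the model the intervals assume, so the check holds no spread between cells, donors or libraries. TMM (edgeR 4.0.16) and DESeq2 1.42.0 size factors were alternatives only. With 1 library a group no test was run.

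The members, lists and SOX2 division were chosen with earlier results of these data known. Named were the 7 members, pathway genes at least 2-fold apart in 1 direction on all 4 days, the 3 with most UMIs in each role, the 3 genes most like each member, CFTR and SOX2. Overlapping loci and the clusters singled out were added after their values were seen. Python 3.11.15 with scipy 1.17.1 was used.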

Additional observations from a re-analysis of the deposited data

Results flagged for a closer look

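Between day 2 and day 9, the library levels of RARB and DHRS3 moved in opposite directions in the 2 genotypes, and ALDH1A1 was higher on day 9 in WT but near level in CF. The ratio of day 9 to day 2 was 1.89 in WT and 0.966 (0.936 to 0.998) in CF for ALDH1A1, 0.805 in WT and 4.40 in CF for RARB, and 0.856 in WT and 1.75 in CF for DHRS3. Each ratio rests on 1 library a day and genotype, so that the differences between genotypes were not tested. Within WT, RARB was at 11.98 CPM on day 2 and 11.4 CPM on day 9 in SOX2-high cells, and at 1.02 and 1.90 CPM in SOX2-low cells. DHRS3 was at 161 and 142 CPM in SOX2-high cells and at 136 and 120 CPM in SOX2-low cells. The part of the mix of cells in these changes was not tested.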

How the results depend on the processing

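The 8 counts of members at least 2-fold apart were the same with TMM or DESeq2 factors, only cells of at least 3000 UMIs, and 3 settings chosen after seeing the data: without clusters with a median under 5000 UMIs, without CF cluster 11, and with LOC101682454 added to FABP5. The counts use ratios of CPM, so a pseudocount cannot change them. On the log2(CPM + 5) scale ALDH1A3 differed by -0.94, -0.41, -0.68 and -0.44 on days 2, 5, 7 and 9 and STRA6 on day 9 by 0.19, each less than 2-fold. With all deposited barcodes 2 members were higher on day 7. With equal weight for each class, 1 was higher on day 5 and 2 on day 9, and the log2 difference turned for DHRS3 on day 5 (0.0043) and day 9 (-0.11) and for FABP5 on day 7 (0.16). With WT limited to SOX2-low clusters, 1 member was lower on day 2, 2 were higher and 0 lower on day 5, 2 lower on day 7 and 0 lower on day 9. For all barcodes, equal class weight and SOX2-low WT clusters, no share over all genes stands beside the counts. Whether they exceed what genes in general do there is therefore not known. The lower member on day 2 and 1 of the 2 on day 7 were ALDH1A3, on 2 CF and 2 WT UMIs and on 1 and 5, under the minimum of 30, with intervals that held 1. The number higher was 2, 1 and 1 on days 2, 7 and 9 as before, but of other members: ALDH1A1 and RARB in place of CRABP2 and FABP5 on day 2, and RARB in place of CRABP2 on day 7 and of STRA6 on day 9. There the difference turned for ALDH1A1 on days 2, 5 and 7 (1.01, 0.77 and 0.66), RARB on day 2 (0.89), FABP5 on days 5 and 9 (-0.52 and -0.54), STRA6 on days 5 and 7 (-0.040 and -0.060) and CRABP2 on day 9 (-0.23). With every cluster of a class, FABP5 in ductal cells turned on days 7 and 9 (0.20 and 0.23 log2). Ratios whose interval had held 1 also crossed it: CRABP2 in centroacinar cells on day 7 (1.1-fold), FABP5 on day 5 (1.06) and ALDH1A1 on day 9 (1.18) in ductal cells, and STRA6 in ductal cells on day 2 (0.821). That setting left 48 of 74 class ratios within their interval. The causes were not tested. With genes of at least 1 UMI, where fewer counts stand behind each ratio, the percent of all genes 2-fold higher was 15.9, 11.6, 18.1 and 16.2 on days 2, 5, 7 and 9, and 2-fold lower 15.3, 16.9, 13.7 and 13.6. TMM and DESeq2 factors shifted the log2 ratio of CPM of every gene by -0.15 and -0.16 on day 7 and by -0.11 and -0.10 on day 9, and the log2(CPM + 1) differences of ALDH1A3 and STRA6 by less.

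The labels give no replicate numbers to pair on. A fit of genotype with day as a block was not run, since the days are conditions of the study and each library is 1 pool of donors. With 1 library a genotype and day, no library was left out. STRA6 in both genotypes and ALDH1A3 in CF rest on few UMIs, so that their intervals are wide.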
